A study of Mus musculus with 6 samples.

Results

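The small leucine-rich proteoglycans are secreted matrix proteins, and transcripts of 10 of them were examined in cultured mouse granulosa cells: Dcn, Bgn, Lum, Fmod, Ogn, Omd, Prelp, Aspn, Podn and Epyc. They were chosen by gene symbol as members of the family and make up 10 of the 55860 genes of the count table. Reads were found for 9 of the 10, and all 9 passed the filter on low counts and were tested. Of those 9, 4 were lower in Il22r-/- cells (Dcn, Fmod, Bgn and Ogn), 3 were higher (Aspn, Prelp and Omd) and 2 did not pass the test (Lum and Podn). Of all 15227 tested genes, 22.1% were lower and 23.6% were higher.

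Granulosa cells, the somatic cells that surround and nourish the oocyte, were taken from the ovaries of mice with an intact Il22r gene (Il22r+/+) and of mice without it (Il22r-/-). Interleukin-22 is a cytokine that acts on cells carrying its receptor, mainly through the transcription factor STAT3, and the series title concerns this pathway in polycystic ovary syndrome. Each genotype had 3 libraries, and the cells of both had been separated on a density gradient and kept for 12 h in medium with serum, with no other agent named. The labels give no strain, age or deleted exon, and do not say whether the 3 libraries of a genotype came from separate animals or cultures, so every p-value below measures only the spread between these libraries, which may be technical.

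Each family member has a protein core built of leucine-rich repeats, which in most of them binds collagen and bears on how fibrils grow and pack. Decorin and biglycan carry chondroitin or dermatan sulfate chains, whereas lumican, fibromodulin and keratocan can carry keratan sulfate. Several members also bind growth factors of the TGF-beta family or cell surface receptors, and in the ovary decorin and biglycan are known from the theca and stroma around follicles.

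RefSeq entries for the bases around the transcription start (build GRCm38.p6, the reference that mm10 denotes) were found for 8 of the 10 members, all except Dcn and Lum. The 250 bases before the start are printed for the 2 members with an entry that fell furthest, Bgn and Fmod, and the 2 that rose furthest, Aspn and Prelp, so that genes moving in opposite directions can be read side by side. Each runs 5′ to 3′ on the strand of its gene. Capitals mark matches on either strand to the letters of a GC box, GGGCGG, and to those of a TATA box, which are TATAAA.
Bgn (chrX:73483351-73483600, plus strand): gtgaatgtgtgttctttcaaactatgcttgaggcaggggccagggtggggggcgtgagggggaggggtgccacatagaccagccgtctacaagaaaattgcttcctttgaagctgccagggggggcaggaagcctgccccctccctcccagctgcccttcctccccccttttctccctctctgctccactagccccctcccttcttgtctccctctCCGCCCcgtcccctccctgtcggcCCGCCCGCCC
Fmod (chr1:134037004-134037253, plus strand): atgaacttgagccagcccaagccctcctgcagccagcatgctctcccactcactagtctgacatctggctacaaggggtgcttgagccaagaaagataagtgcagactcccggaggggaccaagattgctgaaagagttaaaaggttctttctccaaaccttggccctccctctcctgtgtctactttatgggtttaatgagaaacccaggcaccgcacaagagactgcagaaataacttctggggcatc
Prelp (chr1:133921402-133921651, minus strand): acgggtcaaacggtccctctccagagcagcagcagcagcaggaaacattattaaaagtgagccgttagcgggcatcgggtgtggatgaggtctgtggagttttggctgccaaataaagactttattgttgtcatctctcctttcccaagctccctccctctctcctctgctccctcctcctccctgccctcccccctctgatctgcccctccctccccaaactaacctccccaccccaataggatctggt
Aspn (chr13:49544193-49544442, plus strand): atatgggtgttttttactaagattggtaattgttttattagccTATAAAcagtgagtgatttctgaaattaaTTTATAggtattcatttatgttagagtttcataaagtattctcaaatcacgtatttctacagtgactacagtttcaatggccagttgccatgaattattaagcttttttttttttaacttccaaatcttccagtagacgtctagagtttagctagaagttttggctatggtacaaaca
The Bgn stretch is rich in G and C and has 3 GC box matches, whose upstream ends lie at positions -34, -10 and -6 from the start, and the last 2 overlap. The Aspn stretch is rich in A and T and has 2 TATA box matches, far upstream at positions -207 and -178. Over the full 300 bases of each entry, which run on to 50 bases after the start, G and C made up 63.7% for Bgn, 55.3% for Prelp, 51% for Fmod and 31% for Aspn, against a median of 52.7% over all entries. Among 32851 mouse entries of that length, GGGCGG occurred in 35.7% and TATAAA in 13.6%. Fmod, Prelp, Omd and both entries of Epyc matched neither. Ogn, called lower, had 2 overlapping TATA box matches at positions -229 and -227. Podn, not called, had 2 GC box matches in one of its entries, at positions -202 and -70. The letters of a STAT site, TTCNNNGAA, occur in 8.3% of all entries, and those of an AP-1 site, TGANTCA, in 7.81%. Neither occurred in the entries of the 8 members, which says only that these letters are not in these windows.

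The counted reads ranged from 17425229 to 17704556 in Il22r+/+ libraries and from 14948187 to 18116413 in Il22r-/- libraries. Il22ra1, the gene of the ligand-specific receptor chain and taken here as the one the labels call Il22r, was too scarce to check the labels: over replicates 1, 2 and 3 it had 1, 5 and 4 reads with the receptor gene intact and 5, 2 and 0 without it. The genotypes differed widely, with 45.7% of 15227 tested genes called by edgeR's quasi-likelihood test at an adjusted p under 0.05. On the second principal component, Il22r-/- replicate 3 lay at 14.5 and all others between -8.93 and 1.22, and this component held 4.21% of the variance against 89.3% for the first. The labelled cell type was checked against 10 granulosa markers, whose summed level was 5204 to 5763 CPM (counts per mega-read, scaled by TMM) in Il22r+/+ and 5906 to 6502 CPM in Il22r-/-. Inha and Foxl2 were abundant in both genotypes, at 3202 and 191 CPM in Il22r+/+ and 2605 and 137.7 CPM in Il22r-/-. Amh and Cyp19a1 stayed under 1 CPM in the mean of each genotype. Single markers differed between the genotypes: of 8 tested, 4 were higher in Il22r-/-, 1 was lower (Foxl2) and 3 were not called, Inha among them. The higher ones included Inhba (1759 to 2858 CPM) and Fshr (0.257 to 5.99 CPM).

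Against that background, 7 of the 9 tested members were called (77.8%, against 45.7% of all tested genes). The 4 lower members compare with 22.1% of all tested genes called lower, and the 3 higher members with 23.6% called higher. In 7 of the 9 the libraries of the genotypes did not overlap, as was so for 56.0% of all tested genes. The median log2 change of the 9 was -0.45, and that of all tested genes was 0.029. Direction thus differed within the family, and the falls of Dcn, Fmod and Bgn were each larger on the log2 scale than the largest rise, that of the scarce Aspn.

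**Figure D1:**
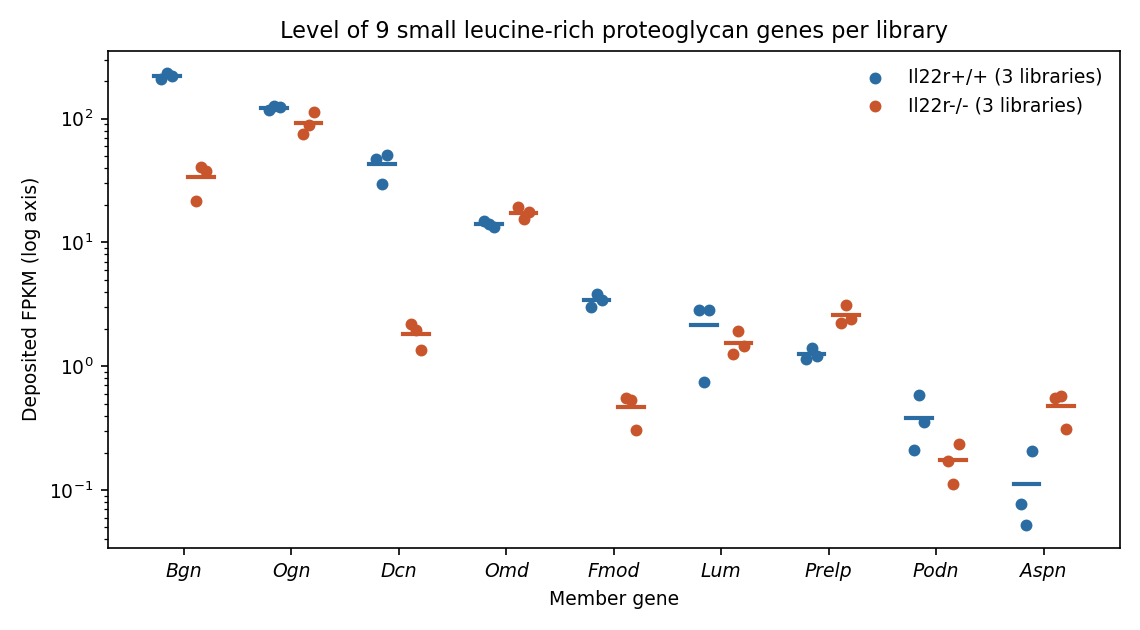
Level of each member with reads in each library, as deposited FPKM (fragments per kilobase of gene and mega-read, on a log axis), with Il22r+/+ libraries in blue and Il22r-/- libraries in orange and a bar at each group mean. Dcn, Bgn and Fmod sit far lower in Il22r-/-, Prelp and Aspn sit higher, and Ogn and Omd move little.

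Biglycan and decorin, the closely related pair that carries chondroitin or dermatan sulfate chains, lost the most FPKM of all members, although Fmod fell by a larger fold than Bgn. Bgn (ENSMUSG00000031375, mm10 chromosome X, 73483602 to 73495933, plus strand) was the most abundant member in Il22r+/+ cells, at 208.5, 232 and 219.7 FPKM in replicates 1, 2 and 3. In Il22r-/- cells it stood at 21.7, 40.9 and 38 FPKM. Every Il22r+/+ library lay far above every Il22r-/- library. On the CPM scale Bgn fell from 1306 ± 71.7 to 202.2 ± 61.7 (SD, n = 3 each), a log2 change of -2.69 ± 0.22 (SE, 95% interval -3.21 to -2.17) or 6.46-fold, with an edgeR adjusted p of 4.8e-05. By log2 change it was 145th from the lowest of the 15227 tested genes.

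Dcn (ENSMUSG00000019929, chromosome 10, 97479609 to 97518143, plus strand), which encodes the collagen-binding and TGF-beta-binding protein decorin, fell further. Its levels were 47.3, 29.8 and 51.2 FPKM in Il22r+/+ and 2.2, 1.95 and 1.35 FPKM in Il22r-/- (replicates 1, 2 and 3). Replicate 2 was the lowest of the Il22r+/+ libraries, yet lay well above all Il22r-/- libraries. The mean went from 242.7 ± 64.2 to 10.6 ± 2.59 CPM (SD, n = 3 each), a log2 change of -4.50 ± 0.28 (95% interval -5.17 to -3.83) or 22.7-fold, with an edgeR adjusted p of 3.28e-05. By log2 change it was 29th from the lowest. By level per length, Dcn ranked 1154th of 15227 tested genes in Il22r+/+ and 10885th in Il22r-/-, whereas Bgn went from 132nd to 1454th.

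Relative to biglycan, too, decorin transcript was scarcer in Il22r-/-. Dcn stood at 22.7%, 12.8% and 23.3% of the Bgn FPKM in Il22r+/+ and at 10.1%, 4.75% and 3.56% in Il22r-/- (means 19.6 ± 5.86% and 6.15 ± 3.51%, SD, n = 3). The groups did not overlap, and the two-sided exact permutation p was 0.1, the smallest that 3 against 3 allows.

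Asporin, the other member of the decorin class, lacks a glycosaminoglycan chain and went the opposite way at a very low level. Aspn (ENSMUSG00000021388, chromosome 13, 49544443 to 49567565, plus strand) was covered by 3, 2 and 8 reads with the receptor gene and by 25, 25 and 11 without it. The highest Il22r+/+ library and the lowest Il22r-/- library were therefore only 3 reads apart. Pooled over libraries and scaled for depth, 13 against 61 reads gave a ratio of 4.49 (95% interval 2.44 to 8.91, counting error only). The log2 change was 2.12 ± 0.54 (95% interval 0.93 to 3.30), with an edgeR adjusted p of 0.00839, and it was 2.88 without Il22r+/+ replicate 3.

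The fibromodulin class, of which several members can carry keratan sulfate, also holds lumican, prolargin and osteomodulin, and it did not move as a group: Fmod fell, Prelp and Omd rose, and Lum did not pass the test. Fmod (ENSMUSG00000041559, chromosome 1, 134037254 to 134048277, plus strand), a regulator of collagen fibril thickness and cross-linking, had 3, 3.83 and 3.41 FPKM in Il22r+/+ and 0.556, 0.537 and 0.304 FPKM in Il22r-/-. These rest on 165, 207 and 185 reads against 35, 33 and 15. Every Il22r-/- library lay below every Il22r+/+ library by a wide margin. The log2 change was -2.82 ± 0.24 (95% interval -3.35 to -2.29), or 7.07-fold lower, with an edgeR adjusted p of 8.02e-06.

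Prelp (ENSMUSG00000041577, chromosome 1, 133910304 to 133921414, minus strand) encodes prolargin, a basic protein that anchors basement membranes to the connective tissue beneath. It had 1.15, 1.4 and 1.2 FPKM in Il22r+/+ and 2.22, 3.13 and 2.39 FPKM in Il22r-/-. All Il22r-/- libraries were higher. The log2 change was 1.07 ± 0.19 (95% interval 0.65 to 1.49), or 2.1-fold, with an edgeR adjusted p of 0.00103. An antisense gene, Gm15851, covers 9.68% of the exon length of Prelp, and the sources used here do not say whether the counting used strand. The ratio of Fmod to Prelp FPKM went from 2.61, 2.73 and 2.85 to 0.25, 0.172 and 0.127, so that the order of these genes was inverted in every library (exact permutation p = 0.1, the smallest possible).

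Omd (ENSMUSG00000048368, chromosome 13, 49582462 to 49592822, plus strand), which encodes the acidic, mineral-binding protein osteomodulin, had 14.8, 14 and 13.3 FPKM in Il22r+/+ and 19.2, 15.4 and 17.6 FPKM in Il22r-/-. The lowest Il22r-/- library was just above the highest Il22r+/+ library. The log2 change was 0.34 ± 0.10 (95% interval 0.11 to 0.56), with an edgeR adjusted p of 0.0211. The call was lost without Il22r+/+ replicate 2 (adjusted p = 0.0656), Il22r+/+ replicate 3 (0.092) or Il22r-/- replicate 1 (0.0958).

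Lum (ENSMUSG00000036446, chromosome 10, 97565128 to 97572703, plus strand) encodes lumican, a keratan sulfate proteoglycan of the cornea and of many interstitial tissues. Its reads numbered 116, 30 and 115 in Il22r+/+ and 58, 88 and 53 in Il22r-/-, so the low Il22r+/+ replicate 2 lay below all Il22r-/- libraries and the other two above them. The log2 change of -0.45 ± 0.45 (95% interval -1.49 to 0.58) did not pass the test (edgeR adjusted p = 0.445). Without Il22r+/+ replicate 2 the log2 change was -0.86 and did pass (adjusted p = 0.0213). Such a low value in that library was uncommon: of 13704 genes that averaged 1 CPM or more in Il22r+/+, 11 were at least 3-fold lower there than in both other Il22r+/+ libraries, compared with 8 and 10 genes for replicates 1 and 3.

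Osteoglycin and epiphycan belong to the class with fewer repeats, and podocan to a class of its own. Ogn (ENSMUSG00000021390, chromosome 13, 49608046 to 49624501, plus strand), whose product is also called mimecan, was the second most abundant member in Il22r+/+, at 116.5, 125.7 and 123.8 FPKM. In Il22r-/- it had 74.8, 88.5 and 113.9 FPKM. The groups nearly touched, with the highest Il22r-/- library close under the lowest Il22r+/+ library. The log2 change was -0.38 ± 0.13 (95% interval -0.67 to -0.09), or 1.3-fold lower, with an edgeR adjusted p of 0.0374. The call was lost when any library other than Il22r-/- replicate 3 was left out (adjusted p between 0.0718 and 0.11), and without Il22r-/- replicate 3 the log2 change was -0.57 with an adjusted p of 4.45e-05. Scaling by library size alone also ended it (log2 change -0.28, adjusted p = 0.0847).

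Podn (ENSMUSG00000028600, chromosome 4, 108014791 to 108096445, minus strand) encodes podocan, a collagen-binding protein of the vessel wall and kidney. Its reads were 15, 41 and 25 in Il22r+/+ against 14, 9 and 15 in Il22r-/-, and the groups met at 15 reads. The log2 change of -1.14 ± 0.45 (95% interval -2.13 to -0.14) missed the threshold (edgeR adjusted p = 0.0616). It passed without Il22r+/+ replicate 1 (0.034) or Il22r-/- replicate 3 (0.0319). Epyc (ENSMUSG00000019936, chromosome 10, 97644068 to 97682454, plus strand), the cartilage member epiphycan, had no read in any library. With 3 counts as the limit for a count of 0, its level was at most 0.0591 CPM over the pooled Il22r+/+ libraries and 0.0566 CPM over the pooled Il22r-/- libraries.

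**Figure D2:**
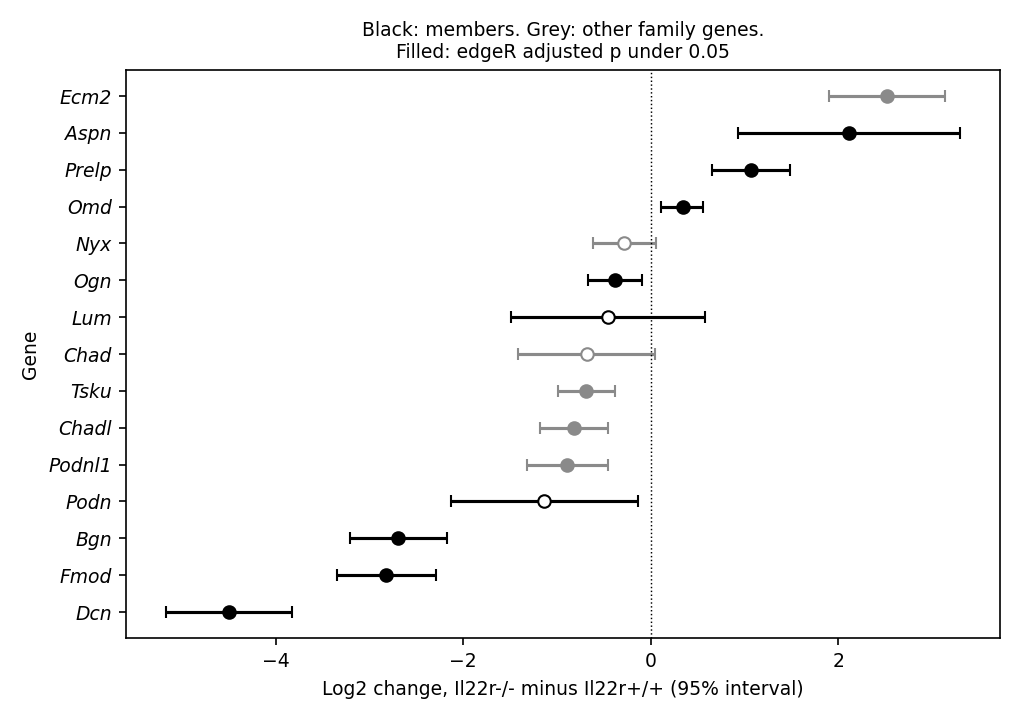
Log2 change (Il22r-/- minus Il22r+/+) with its 95% interval for the 9 tested members (black) and the 6 tested genes of the wider family (grey), sorted by size, with filled points where the edgeR adjusted p was under 0.05. Dcn, at -4.50, lies below all others. At the upper end lie Ecm2, at 2.52 (95% interval 1.9 to 3.14), and Aspn, at 2.12 with a wide interval (0.93 to 3.3).

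The order of the members by level per length changed with genotype. In Il22r+/+ the order of mean FPKM was Bgn (220.1), Ogn (122), Dcn (42.7), Omd (14), Fmod (3.41), Lum (2.15), Prelp (1.25), Podn (0.385) and Aspn (0.112), and among neighbours Lum and Prelp overlapped in their libraries. In Il22r-/- it was Ogn (92.4), Bgn (33.5), Omd (17.4), Prelp (2.58), Dcn (1.83), Lum (1.54), Aspn (0.481), Fmod (0.466) and Podn (0.174). Dcn and Lum overlapped there, as did Aspn and Fmod. By FPKM, Dcn, above Omd and Fmod in Il22r+/+, came to lie beside Lum in Il22r-/-: the ratio of Dcn to Lum FPKM was 16.6, 39.7 and 17.9 in Il22r+/+ and 1.76, 1.01 and 0.934 in Il22r-/-. These orders depend on the deposited gene lengths, such as 5838 bases for Dcn, 2448 for Lum and 3615 for Prelp. By reads, Dcn stayed above Lum in Il22r-/-, with 244, 211 and 118 against 58, 88 and 53. Summed over the Il22r-/- libraries, Dcn had 573 reads and Prelp 492.

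Together the members gave 394.4, 408.2 and 416 FPKM in Il22r+/+ and 122.6, 153.1 and 175.5 FPKM in Il22r-/-, a ratio of means of 2.7. The groups did not overlap (two-sided exact permutation p = 0.1, the smallest possible). Without Bgn and Dcn the sums were 143.4 ± 4.14 and 115 ± 19.2 FPKM (SD, n = 3). The mean sum of all 10 fell by 255.8 FPKM, and that of the other 8 fell by 28.3 FPKM.

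By FPKM, the largest part of this pool went from biglycan to osteoglycin. FPKM divides by the deposited gene length, 6099 bases for Bgn and 2566 for Ogn. By share of the members' counts, Bgn held 33.4%, 46% and 39.5% and Ogn 48.6%, 41.9% and 49.9% in Il22r-/- replicates 1, 2 and 3. In replicate 2, Bgn thus stayed ahead of Ogn by reads. Bgn made up 54.2 ± 2.31% of the summed FPKM in Il22r+/+ and 22 ± 4.55% in Il22r-/- (SD, n = 3), a difference of -32.2 percentage points. Ogn went from 30 ± 0.666% to 61.2 ± 3.55%, although its own level did not rise. Dcn went from 10.5 ± 2.8% to 1.28 ± 0.51% and Omd from 3.46 ± 0.282% to 11.9 ± 3.26%. Shares of a common sum are tied, so a fall in Bgn raises the others. Each of these 4 shares was apart between the groups in all libraries, with a two-sided exact permutation p of 0.1 (0.112 after Benjamini-Hochberg adjustment over 9 members), and 3 against 3 cannot give a smaller p. The ratio of Ogn to Bgn FPKM was 0.559, 0.542 and 0.563 in Il22r+/+ and 3.45, 2.16 and 3 in Il22r-/-.

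**Figure D3:**
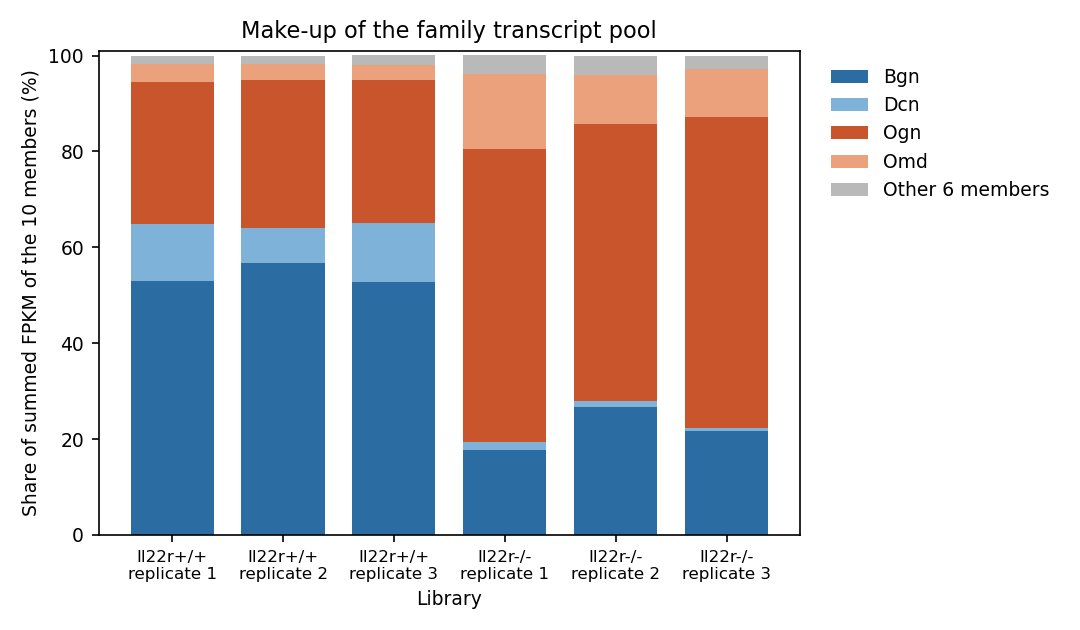
Share of the summed FPKM of the 10 members that each of Bgn, Dcn, Ogn, Omd and the other 6 members took in each of the 6 libraries, as stacked bars from 0 to 100%. Bgn fills 52.8% to 56.8% of the Il22r+/+ bars, and Ogn fills 57.8% to 64.9% of the Il22r-/- bars.

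Most members lie in gene clusters. Neighbours parted in direction at Omd and Ogn and at Prelp and Fmod, while Ecm2, Aspn and Omd, next to each other, were all called higher. On chromosome 10, Dcn, Lum, Kera and Epyc follow each other on the plus strand within 202.8 kb. Dcn fell 22.7-fold there, Lum, which begins 85.5 kb downstream of the start of Dcn, did not pass the test, Kera (keratocan) had 1 read in 6 libraries and Epyc had none. On chromosome 1, Prelp and Fmod point away from each other with 115.8 kb between them, and Prelp rose while Fmod fell. Optc (opticin), next to Prelp, had too few reads for the test, 35 in Il22r+/+ and 23 in Il22r-/-.

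On chromosome 13, Ecm2, Aspn, Omd and Ogn follow each other on the plus strand within 119.7 kb, and their log2 changes along it were 2.52 ± 0.28, 2.12 ± 0.54, 0.34 ± 0.10 and -0.38 ± 0.13. Ecm2, a leucine-rich matrix protein at the upstream end of the row, was covered by 15, 13 and 9 reads in Il22r+/+ against 76, 87 and 61 in Il22r-/- (edgeR adjusted p = 5.01e-05). All 4 lie inside the span of Cenpp (centromere protein P, 49464023 to 49652785) on the other strand. Ecm2, Omd and Ogn each lie whole in a gap between its exons, and Aspn shares 0.297% of its exon length with it. Cenpp itself had 2.98, 1.97 and 3.32 CPM in Il22r+/+ and 5.15, 6.51 and 7.42 CPM in Il22r-/-, a log2 change of 1.20 ± 0.24 (edgeR adjusted p = 0.00245). Whether reads of Cenpp's unspliced transcript add to the counts of the genes within it was not tested.

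**Figure D4:**
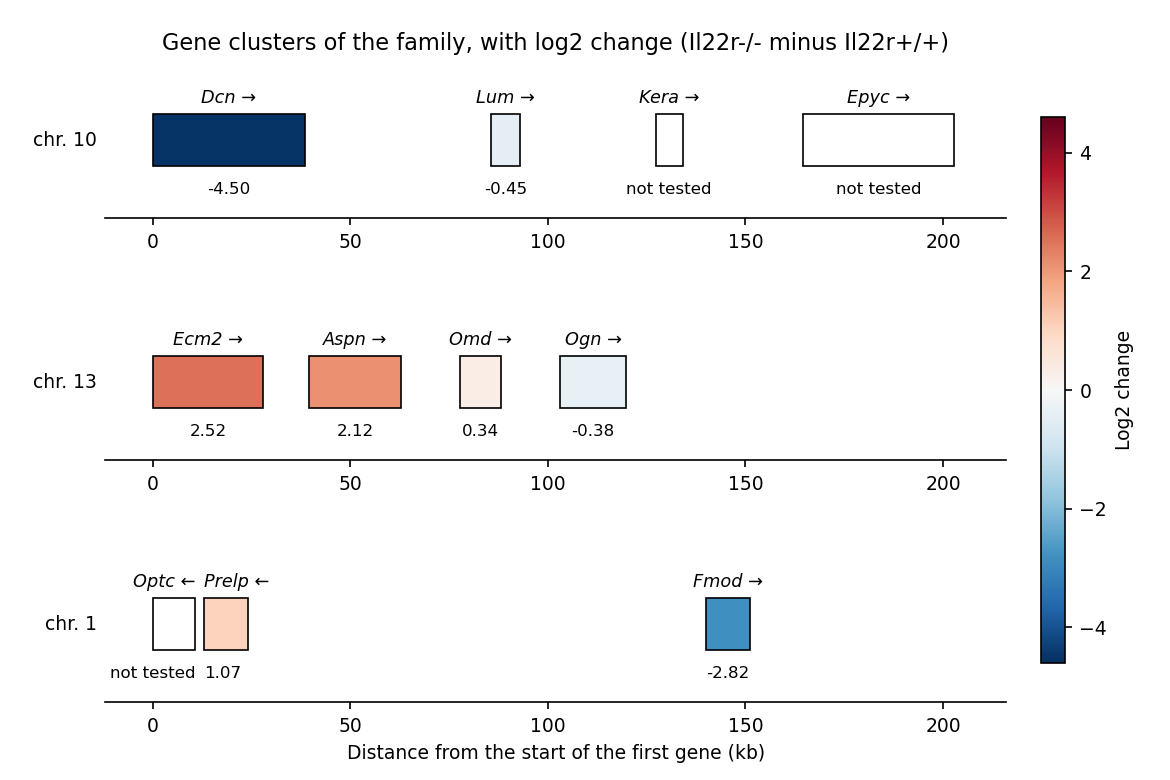
Map of the 3 gene clusters that hold members, with distance in kb from the start of the first gene on each horizontal axis, arrows for the strand and colour for the log2 change (blue lower, red higher in Il22r-/-, white not tested). The values are -4.50 (Dcn) and -0.45 (Lum, not called) on chromosome 10, run from 2.52 (Ecm2) to -0.38 (Ogn) on chromosome 13, and are 1.07 (Prelp) and -2.82 (Fmod) on chromosome 1.

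Of 9 further genes of the wider family or its clusters, 6 were tested, of which 1 was higher (Ecm2), 3 were lower and 2 were not called. The called share was 66.7%, against 45.7% of all tested genes, and the median log2 change of the 6 was -0.69. Tsku (tsukushi, a secreted inhibitor of BMP and Wnt signals) was the most abundant of them per length, at 12, 10.3 and 10.5 FPKM in Il22r+/+ and 6.13, 5.75 and 8.25 FPKM in Il22r-/- (log2 change -0.69 ± 0.14, edgeR adjusted p = 0.00209). Podnl1, the paralog of podocan, fell by 0.89 ± 0.20 on the log2 scale (adjusted p = 0.00389). Chadl, a relative of chondroadherin, fell by 0.82 ± 0.16 (adjusted p = 0.00218), with 19.5% of its exon length overlapped by L3mbtl2 on the other strand. Nyx (nyctalopin) and Chad (chondroadherin) had log2 changes of -0.28 ± 0.16 and -0.68 ± 0.33 that did not pass (adjusted p = 0.167 and 0.119), and Nepn (nephrocan) had no reads. Nyx passed without Il22r+/+ replicate 3 (log2 change -0.44, adjusted p = 0.0333).

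The enzymes that build the members' side chains were examined next. Of 23 genes for chondroitin and dermatan sulfate assembly, 20 were tested, with 7 lower, 4 higher and 9 not called (55% called, near the 45.7% of all tested genes, median log2 change -0.12). Chpf and Chpf2, which work with chondroitin synthase to lengthen the chain, fell from 162.5 ± 1.63 to 81 ± 8.88 CPM and from 151.3 ± 8.84 to 74 ± 4.67 CPM (log2 changes -1.01 ± 0.09 and -1.03 ± 0.08, edgeR adjusted p = 8.58e-06 and 3.99e-06). The exons of Smarcd3 on the other strand cover 44.1% of those of Chpf2. The epimerases Dse and Dsel, which turn chondroitin into dermatan sulfate, were lower, with log2 changes of -0.46 ± 0.12 and -0.54 ± 0.10 (adjusted p = 0.0109 and 0.00103). Xylt1, a xylosyltransferase that starts the chain on the core protein, went the other way, from 11.1, 11.2 and 9.48 CPM to 27.6, 29.4 and 35.3 CPM (log2 change 1.54 ± 0.13, adjusted p = 7.8e-06), and Ust, which sulfates uronic acid, rose by 1.29 ± 0.21 on the log2 scale (adjusted p = 0.000541).

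For keratan sulfate, 6 of 7 genes were tested, with 3 lower, 1 higher and 2 not called (66.7% called, against 45.7% of all, median log2 change -0.41). The galactosyltransferases B4galt4 and B4galt1 fell from 81.9 ± 4.31 to 30.7 ± 3.38 CPM and from 252 ± 6.06 to 114.5 ± 7.62 CPM (edgeR adjusted p = 1.55e-06 and 1.85e-06). The sulfotransferase Chst1 had a log2 change of -0.77 ± 0.25 (adjusted p = 0.0251), and Chst2, another sulfotransferase, one of 1.13 ± 0.29 (adjusted p = 0.0088). The call of Chst1 was lost without Il22r+/+ replicate 1, Il22r+/+ replicate 3 or Il22r-/- replicate 1 (0.0533, 0.11 and 0.0634). With limma on log2(FPKM + 1) and no filter, neither Chst1 (adjusted p = 0.0679) nor Chst2 (0.119) was called.

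Of the collagens that the members bind, 11 of 12 were tested, and 5 were lower, 4 were higher and 2 were not called (81.8% called, against 45.7% of all tested genes), with a median log2 change of -0.35. The chains of type VI collagen, a microfibril to which biglycan and decorin bind, parted. Col6a1 had 388.6, 351 and 341.8 CPM in Il22r+/+ and 46.5, 72.5 and 62.7 CPM in Il22r-/- (log2 change -2.57 ± 0.15, edgeR adjusted p = 2.12e-06). Col6a2 had 159.1, 139.3 and 141.8 CPM against 4.57, 8.32 and 4.27 CPM (-4.67 ± 0.22, adjusted p = 2.16e-06). Col6a3, the third chain of the same heterotrimer, rose from 0.643, 0.418 and 0.533 CPM to 8.24, 17.6 and 6.37 CPM (4.32 ± 0.47, adjusted p = 0.000102).

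The chains of type I collagen, the fibril that decorin coats, also differed from each other. Col1a1 was at 131.8 ± 16.9 and 103.3 ± 32.6 CPM (SD, n = 3) and was not called (edgeR adjusted p = 0.282). Col1a2 had 2.87, 1.43 and 0.533 CPM in Il22r+/+ and 44.3, 99.2 and 40.4 CPM in Il22r-/-, all Il22r-/- libraries being far higher (log2 change 5.24 ± 0.65, adjusted p = 0.00171). Col3a1, of the same fibrils, fell from 300.2 ± 40.2 to 107.2 ± 18.3 CPM (-1.49 ± 0.14, adjusted p = 2.41e-05). Col1a1, Col1a2 and Col3a1 also stand on the fibroblast marker list.

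**Figure D5:**
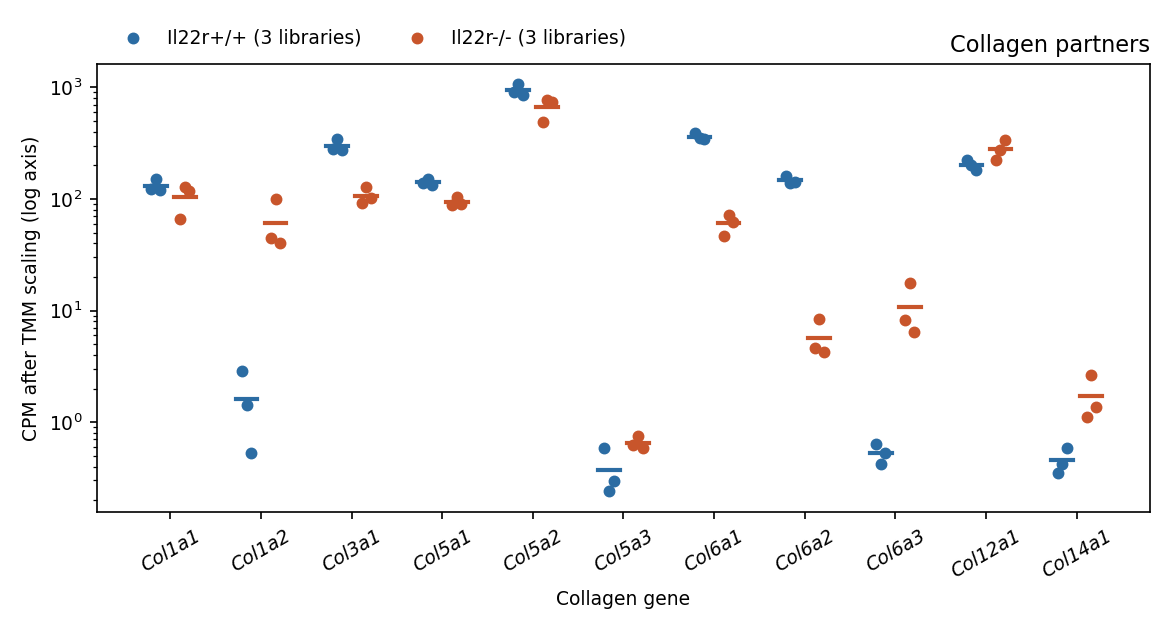
CPM after TMM scaling (log axis) of the 11 tested collagen genes in each library, with Il22r+/+ in blue, Il22r-/- in orange and a bar at each group mean. Col6a1, Col6a2 and Col3a1 lie lower in Il22r-/-, whereas Col1a2 and Col6a3 go from at most 2.87 CPM to between 6.37 and 99.2 CPM.

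Of 21 growth factors and receptors known to bind members of the family, all were tested, with 7 higher, 6 lower and 8 not called (61.9% called, against 45.7% of all, median log2 change 0.09). Ccn4, a matrix protein that binds decorin and biglycan, fell from 148.8, 163.7 and 136.2 CPM to 27.6, 34.3 and 43 CPM (log2 change -2.10 ± 0.15, edgeR adjusted p = 9.05e-06). Tgfb2, a ligand that decorin and biglycan can sequester, rose from 8.3 ± 1.7 to 30.9 ± 3.23 CPM (1.89 ± 0.15, adjusted p = 6.21e-06). Bmp2 rose from 38.2 ± 5.4 to 108.2 ± 18.5 CPM (adjusted p = 5.01e-05), and Bmp4 fell from 15.1 ± 2.89 to 6.38 ± 1.96 CPM (adjusted p = 0.00123). Tlr2 and Tlr4, the innate receptors of soluble biglycan, did not pass (log2 changes 0.54 ± 0.32 and 0.61 ± 0.29, adjusted p = 0.201 and 0.106); these were singled out after their values were seen, as were Dse, Dsel and Col3a1.

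Among 13 proteases that trim or cleave the family, 7 were tested, with 3 lower, 1 higher and 3 not called (57.1% called, against 45.7% of all, median log2 change -0.23). Bmp1, which removes the propeptide of biglycan, fell from 350.3 ± 10.3 to 188.5 ± 5.4 CPM (log2 change -0.89 ± 0.07, edgeR adjusted p = 6.48e-06), Mmp14 had a log2 change of -0.68 ± 0.09 (adjusted p = 0.00018) and Mmp2 one of -0.47 ± 0.12 (adjusted p = 0.00852, but 0.0519 with limma on log2(FPKM + 1) and no filter). Adamts5, a proteoglycan-cleaving protease, rose from 63 ± 5.35 to 196.4 ± 76.6 CPM (1.64 ± 0.29, adjusted p = 0.005).

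Among proteoglycans outside the family, more genes rose than fell, but Hspg2 and Sdc4, the most abundant by CPM, fell. Of 19 tested core proteins, 10 were higher, 5 lower and 4 not called (78.9% called, against 45.7% of all tested genes, with 23.6% higher and 22.1% lower), with a median log2 change of 0.81 against -0.45 for the small leucine-rich members. The difference between these medians was not tested, and they weigh scarce and abundant genes alike. Hspg2, the most abundant by CPM, fell from 2393 ± 213 to 1628 ± 349.4 CPM (edgeR adjusted p = 0.00983). Sdc4, the next, fell from 753.5 ± 66.2 to 353.5 ± 51.7 CPM (adjusted p = 3.91e-05). Per length, Gpc4 (177 FPKM in Il22r+/+) ranked between Sdc4 (304.1 FPKM) and Hspg2 (166.9 FPKM) and was not called (edgeR adjusted p = 0.214). Vcan (versican, the large hyaluronan-binding proteoglycan of the expanding cumulus) had 5.09, 4.71 and 4.09 CPM in Il22r+/+ and 40.4, 49.3 and 60.3 CPM in Il22r-/- (log2 change 3.43 ± 0.17, edgeR adjusted p = 3.19e-07). Spock2 (testican-2) rose by 2.64 ± 0.12 on the log2 scale (adjusted p = 1.99e-07) and Cspg4 by 2.99 ± 0.51 (adjusted p = 0.000883), the latter from only 0.276 ± 0.124 CPM and not called with limma on log2(FPKM + 1) and no filter (adjusted p = 0.0932). Gpc5, a glypican, had a log2 change of -3.24 ± 0.36 (adjusted p = 5.3e-05).

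Genes most like Dcn and Bgn over the 6 libraries were found by the root mean square difference of centred log2 CPM, as a description with no test, since a shared split by genotype is enough to place a gene there. Nearest to Dcn were Msln (difference 0.32), Bace2 (0.35), Plce1 (0.38) and Col6a2 (0.39), with log2 changes between -4.86 and -4.24. Near to Bgn were Fbxo2 (0.13), Itga7 (0.15) and Col6a1 (0.16), with log2 changes between -2.60 and -2.41. A type VI collagen chain thus stood among the nearest genes of each.

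Markers of other cell types differed between the genotypes in the same libraries, and in bulk samples fewer cells of a type cannot be told apart from less RNA per cell. The counts of called markers below stand against 22.1% of all tested genes called lower and 23.6% called higher. The 8 markers of ovarian surface and mesothelium summed to 640.2 to 656.2 CPM in Il22r+/+ and 34.5 to 54 CPM in Il22r-/-. All 8 had reads in both genotypes, and 5 of 8 were lower, among them Gpm6a (387.2 ± 9.77 to 8.05 ± 2.06 CPM) and Msln, the gene nearest to Dcn, while Krt19, Krt7 and Wt1 were not called. The 10 markers of stroma and theca fibroblasts summed to 448.7 to 557.2 CPM against 273.2 to 432.4 CPM, with 2 of 6 tested higher, 1 lower and 3 not called. The 1 lower was Col3a1 (300.2 ± 40.2 to 107.2 ± 18.3 CPM), the largest part of the Il22r+/+ sum. The 2 higher were Col1a2 and Ptch1. Pdgfra was at 11.2 ± 0.898 and 9.17 ± 3.62 CPM and was not called. Tcf21, too scarce for the test, had 0 reads in every Il22r+/+ library and 22, 42 and 8 reads in Il22r-/- replicates 1, 2 and 3. Dpt was near 0 in both genotypes, with 1, 2 and 0 reads in Il22r+/+ and 0 in Il22r-/-. Pi16 had at most 0.0199 CPM in the mean of either genotype.

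The summed smooth muscle and macrophage markers were higher in all Il22r-/- libraries, as were Aspn, Prelp, Col1a2 and Col6a3. The 8 smooth muscle and pericyte markers summed to 281.8 to 336.9 CPM in Il22r+/+ and 365.3 to 591 CPM in Il22r-/-, with 4 of 7 tested higher and 2 lower. The 8 macrophage markers summed to 8.53 to 10.1 CPM and 26.6 to 77.8 CPM, with all 7 tested higher. Endothelial markers summed to 3.74 to 5.63 CPM and 4.2 to 7.63 CPM, and oocyte markers to 1.49 to 1.54 CPM and 0.591 to 2.99 CPM, and both sums overlapped between the genotypes. All 3 endothelial markers tested were called even so, as were 45.7% of all tested genes. Pecam1 and Kdr were higher (log2 changes 1.42 ± 0.43 and 2.52 ± 0.69, edgeR adjusted p = 0.021 and 0.0122). Tek, the most abundant of them, was lower (-0.7 ± 0.25, adjusted p = 0.0392). Neither of the 2 oocyte markers tested was called. Among the smooth muscle markers, Acta2 made up most of the sum and went from 277.5 ± 26.8 to 462.2 ± 125.5 CPM. The smooth muscle myosin Myh11 went from 0.706 ± 0.516 to 13.9 ± 5.34 CPM. Tagln (6.35 ± 1.17 to 3.25 ± 0.374 CPM) and Notch3 (15.9 ± 1.98 to 10.1 ± 2.95 CPM) were lower, and Cnn1 was not called. The part of any of these cell types in the levels of the 10 members or of the collagens was not tested.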

How the data were processed

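The authors deposited gene counts, whole numbers tested as given, and FPKM values. The submitters' processing notes name featureCounts 1.5.0-p3 and the mm10 build. The sources used here do not give the aligner, strand setting or read filters. The deposited FPKM of a library equalled its counts divided by gene length and by a constant of 0.936 to 1.05 times its count total, and served to compare levels between genes. Genes passing filterByExpr (15227) were scaled by TMM factors and tested with the quasi-likelihood test of edgeR 4.0.16 in R 4.3.3, with genotype as the only term and Benjamini-Hochberg adjustment over all tested genes, called at an adjusted p under 0.05. CPM are counts per mega-read after that scaling. Errors of log2 changes, given as SE, were derived from the test, as the size of the log2 change divided by the square root of its F statistic. Their 95% intervals used a t quantile. Counting intervals are exact at 95% and cover counting error only. The step was run on simulated data with far fewer changed genes than here and the same dispersion for every gene. That checks the code and not the calls made here.

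The 10 members and all gene lists were chosen with earlier results of these data known, so the lists give no independent support. Named were all members, the 9 further family genes and neighbours, up to 4 called genes of each other list by size of change with a mean of at least 1 CPM, marker sums with leading markers, and the 4 genes most like Dcn and Bgn with a mean of at least 5 CPM (log2 CPM with a prior count of 2). A gene that this rule names is not reported here. Other genes named were chosen after their values were seen: Tlr2, Tlr4, Dse, Dsel, Col3a1, Col1a1, Hspg2, Sdc4, Gpc4, Cenpp and the markers given by name.

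Alternatives were the Wald test of DESeq2 1.42.0, DESeq2 size factors used in edgeR, library size alone, limma-voom (limma 3.58.1), no filter (1 read in any library), at least 1 CPM in 3 libraries, limma on log2(FPKM + 1) with and without the filter and on log2(FPKM + 0.1), a replicate block, and each of the 6 libraries left out. Gene positions and exon overlaps came from GENCODE M21, in which 99.5% of 55230 shared genes had the same start and end, and bases before start sites from a RefSeq table of build GRCm38.p6.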

Additional observations from a re-analysis of the deposited data

How the results depend on the processing

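Over 16 alternatives, the number of members called lower in Il22r-/- ran from 3 to 5 (4 as reported) and the number called higher from 2 to 3 (3 as reported). Dcn, Bgn, Fmod and Prelp passed the threshold in all 16, and Aspn in the 15 that tested it, since a filter of at least 1 CPM in 3 libraries removed it. No value changed sign. The Ogn call was lost in 9 of 16 and the Omd call in 4 of 16. Besides the library left out and the scaling given above, limma on FPKM ended the Ogn call (adjusted p = 0.0528, 0.051 and, with no filter, 0.116) and, with no filter, the Omd call (0.0828). Podn also passed with no filter on low counts (0.0355). The cause was not tested. With fewer samples, the counts of all genes called ran from 5411 to 8243 when 1 library was left out, the highest without Il22r-/- replicate 3, and over all alternatives from 5373, against 6963. With 1 library left out, the change in the Bgn share ran from -34.5 to -30 percentage points.

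Scaling by library size alone moved the median log2 change of all genes from 0.029 to 0.132 and the share of calls that were higher from 51.6% to 63.6%. Under it Dcn and Bgn had log2 changes of -4.40 and -2.59, and Ogn and Omd of -0.28 and 0.44. On log2(FPKM + 1) scarce genes shrank, with Aspn at 0.41 and Fmod at -1.59.

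With a replicate block (the replicate number of the labels as a term), 4 members were lower, 3 were higher and 6405 genes were called in all. Same-numbered libraries did not deviate together from their group means (correlations 0.026, -0.041 and -0.028 over 15227 genes), so no pairing by number was detected. With 3 libraries per group, a weak pairing would not show in these correlations.

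Pairs of replicates differed by more than sampling noise, with a chi-square per gene of 4.66 to 6.63 in Il22r+/+ and 10.2 to 27 in Il22r-/-, so no library was counted as a duplicate. Depth limits Aspn, Podn, Ecm2 and Optc, none of which had more than 87 reads in a library.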
